A study of Homo sapiens with 12 samples.

Results

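The genes described here are 10 members of the endoplasmic reticulum (ER) stress machinery, chosen by symbol from the 23615 genes of the deposited tables and followed across cell line and treatment. They are the stress sensors ERN1 (IRE1), EIF2AK3 (PERK) and ATF6, the transcription factor XBP1, and 6 genes of protein folding and disposal in the ER: CALR, CANX, PDIA4, SDF2L1, HERPUD1 and EDEM1. RNA was sequenced from HEK293T cells, a human embryonic kidney line that carries the SV40 large T antigen. All cells had been transduced with lentivirus and selected with puromycin. They carried a control hairpin (shControl) or a hairpin against HuR (shHuR), the RNA-binding protein that ELAVL1 encodes and that binds AU-rich and U-rich stretches of mRNA. Each line was left untreated, given 25 µM HNE alkyne, a tagged form of the lipid-derived electrophile 4-hydroxynonenal, for 18 h, or given 225 µM H2O2 for 18 h. The 6 groups held 2 biological replicates each, 12 libraries in all. Each line is the population made with a single hairpin, so an effect of the line cannot be told apart from an effect of that hairpin.

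The ER folds secreted and membrane proteins. When unfolded proteins build up there, ERN1, EIF2AK3 and ATF6 start the unfolded protein response: ERN1 splices XBP1 mRNA, EIF2AK3 slows translation and raises ATF4, and ATF6 is cut in the Golgi to release a transcription factor. Together these raise chaperones, folding enzymes and the parts of ER-associated degradation, which sends misfolded proteins to the proteasome. HNE reacts with cysteine, histidine and lysine residues of proteins, and H2O2 oxidises thiols, including those on which disulfide formation in the ER depends. The series title names as its question what HuR does for the transcriptome when electrophiles or oxidants act on cells. Counts per gene do not separate spliced from unspliced XBP1 mRNA, so the activity of ERN1 was not measured here.

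Spliced XBP1 and the cut form of ATF6 act through short DNA elements, and these are shown because the members that carry them can then be set beside those that do not. The ER stress response element (ERSE: CCAAT, 9 bases of any kind, CCACG), its shorter form ERSE-II (ATTGG, 1 base of any kind, CCACG) and the unfolded protein response element (UPRE, TGACGTGG) were searched on both strands, from 250 bases before to 50 bases after the transcription start, in the promoter sequences of RefSeq (GRCh38.p14). The CGTGG end of UPRE is the complement of the CCACG end of the other motifs, so they can overlap. All 10 members had a promoter sequence. ERSE was found in 3 members, ERSE-II in 2 and UPRE in 0. Below, 30 bases around each match are given on the strand of the gene, 5′ to 3′, with the motif in capitals, and with the ERSE of HSPA5, which encodes the main ER chaperone BiP, for comparison.
XBP1 (ERSE): gctggCCAATCGCGGAGGGCCACGaccgta
CANX (ERSE): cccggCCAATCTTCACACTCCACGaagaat
CALR (ERSE, opposite strand): ccacgCGTGGTCGACCATCATTGGtcggtg
HSPA5 (ERSE): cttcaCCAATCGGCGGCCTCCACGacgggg
HERPUD1 (ERSE-II): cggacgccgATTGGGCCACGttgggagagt
SDF2L1 (ERSE-II, opposite strand): cctcggaagCGTGGACCAATcaaaaccctc

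Distances are counted from the RefSeq start, which can differ from the start of the gene in GENCODE release 29. The XBP1 window lies at chr22:28800597-28800626 on the minus strand, with the centre of the motif 43 bases upstream of the RefSeq start. Those of CANX (chr5:179698773-179698802, plus strand, 142 bases upstream), CALR (chr19:12938379-12938408, plus strand, 216 bases), HSPA5 (chr9:125241385-125241414, minus strand, 57 bases), HERPUD1 (chr16:56932016-56932045, plus strand, 112 bases) and SDF2L1 (chr22:21642105-21642134, plus strand, 183 bases) are all upstream too. The CANX window falls inside the span of the gene in GENCODE release 29 (chr5:179678628-179730925), which has starts further upstream. Of the 35116 promoter sequences, 0.0769% held the exact ERSE, 0.0541% ERSE-II and 0.729% UPRE. None of the motifs, in this exact spelling and window, was in the promoters of PDIA4, EDEM1, ATF6, ERN1 or EIF2AK3. A match describes the sequence, and binding of a factor was not measured.

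Total counts per library ran from 24855946 to 29907258. Of the 23615 genes 16005 passed the filter on low counts in the comparisons of the lines, among them all 10 members. The transcript aimed at, ELAVL1, lay at 69.3 to 74.5 CPM (counts scaled to library size) in the 6 shHuR libraries, below every shControl library (86.0 to 99.4 CPM), with a log2 fold change of -0.38 (adjusted p = 2.60e-06). Of 8 genes widely reported in HEK293T cells 6 were above 1 CPM in every library, while LHX1 was at 0.53 to 1.22 CPM and PAX2 was below 1 CPM. Of 11 markers of blood, endothelial, fibroblast and liver cells 9 were below 1 CPM in every library. COL1A1 and LUM were the exceptions, HBB was at 0, and the 11 summed to 2.86 to 5.80 CPM per library. Replicate 2 of the HNE-treated shControl group stood apart from replicate 1 of its group in several members, and values without it are given where leaving it out changed a call or moved an estimate markedly. In bulk RNA, fewer cells of a kind and less RNA per cell cannot be told apart.

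Levels are compared between genes per length, as the median FPKM (fragments scaled to gene length and library size) of the 12 libraries. The lectin chaperones of glycoproteins led. CANX, the membrane-bound form, was at 299.5 FPKM (285 to 318) and CALR, its soluble relative, at 273 FPKM (231 to 303). PDIA4, a protein disulfide isomerase, followed at 121 FPKM (109 to 133). XBP1 was at 64.6 FPKM (51.7 to 70.4) and SDF2L1, a partner of BiP and its co-chaperones, at 48.7 FPKM (34.2 to 60.2). EDEM1, a lectin that passes misfolded glycoproteins on to degradation, was at 16.2 FPKM (15.6 to 18.4). HERPUD1, a membrane scaffold of the ubiquitin ligase complex of ER-associated degradation, was at 15.9 FPKM (13.3 to 17.5). The sensors were lowest, with ATF6 at 13.5 FPKM (12.0 to 14.3), EIF2AK3 at 6.44 FPKM (5.56 to 7.2) and ERN1 at 2.1 FPKM (1.67 to 2.66). The ranges of CANX and CALR, of XBP1 and SDF2L1, of EDEM1 and HERPUD1 and of HERPUD1 and ATF6 overlapped, so those neighbours were not separated by their spread over libraries.

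**Figure D1:**
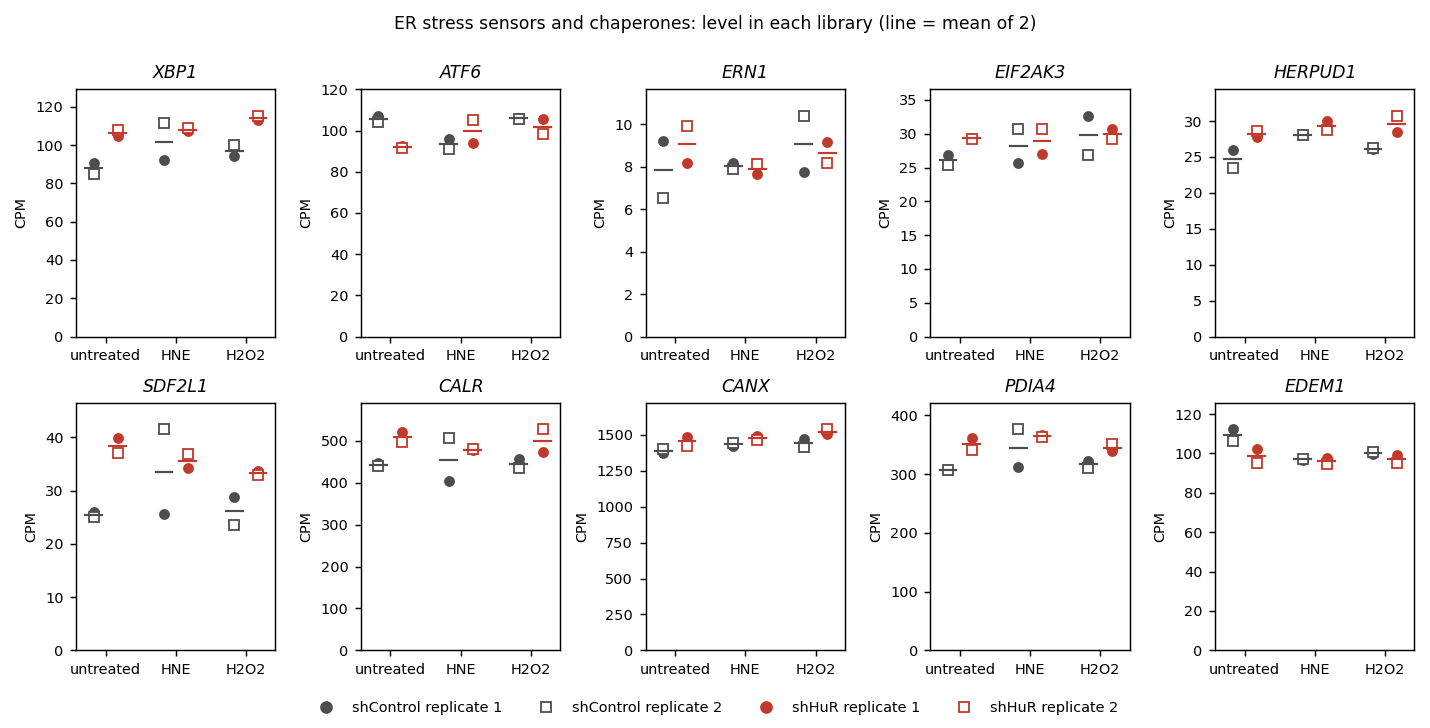
CPM of each member (vertical axes, from 0) in each of the 12 libraries, by treatment (horizontal axes) and line (grey shControl, red shHuR; circles replicate 1, squares replicate 2; bars the mean of 2). SDF2L1 sits between 32.9 and 39.8 CPM in the shHuR libraries and between 23.5 and 28.7 CPM in the shControl libraries other than replicate 2 with HNE, at 41.5 CPM.

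Over all treatments, 5 of the 10 members were higher in shHuR cells and 0 were lower: SDF2L1, XBP1, CALR, HERPUD1 and PDIA4 (edgeR quasi-likelihood test, adjusted p under 0.05, treatment in the model). The background is large, since 29.9% of all genes differed between the lines in this test, 14.1% higher and 15.9% lower. SDF2L1 was 26.8% higher in shHuR cells, XBP1 14.7%, CALR 10.7%, HERPUD1 10.6% and PDIA4 9.70%. The 5 that rose comprise 2 genes with an ERSE-II (HERPUD1, SDF2L1), 2 with an ERSE (XBP1, CALR) and PDIA4, with no match. CANX carries an ERSE and did not pass the test. The sensors ERN1, EIF2AK3 and ATF6 did not pass it either, nor did EDEM1. The median log2 fold change of the 10 members was 0.10, and that of all genes tested was -0.00.

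XBP1 is the transcription factor that ERN1 activates by splicing, and its own promoter carries the ERSE shown above. In shControl cells it was at 90.7 and 84.9 CPM without treatment, 92.0 and 112 CPM under HNE and 94.2 and 99.97 CPM under H2O2. In shHuR cells it was at 104 and 108 CPM without treatment, 107 and 109 CPM under HNE and 113 and 115 CPM under H2O2. All 6 shHuR libraries were above 5 of the 6 shControl libraries, and only HNE replicate 2 of shControl overlapped them. The shControl libraries averaged 95.6 ± 9.27 CPM and the shHuR libraries 109 ± 3.99 CPM (SD, n = 6 for each). Its log2 fold change was 0.20 (SE 0.0496, adjusted p = 0.00590), and 0.25 without the shControl library that overlapped. It passed the threshold in all 22 alternative analyses. The gene lies at chr22:28794555-28800597 on the minus strand (GRCh38, GENCODE release 29).

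SDF2L1 differed most of the members. In shControl cells it was at 25.9 and 25.1 CPM without treatment, 25.7 and 41.5 CPM under HNE and 28.7 and 23.5 CPM under H2O2. In shHuR cells it was at 39.8 and 37.1 CPM without treatment, 34.2 and 37.0 CPM under HNE and 33.6 and 32.9 CPM under H2O2. The lines did not overlap untreated or with H2O2, and with HNE the value of shControl replicate 2 was the highest of all 12. The shControl libraries averaged 28.4 ± 6.63 CPM and the shHuR libraries 35.8 ± 2.64 CPM (SD, n = 6 for each). Its log2 fold change was 0.34 (SE 0.10, adjusted p = 0.0154), and 0.47 (adjusted p = 1.85e-05) without HNE replicate 2 of shControl. SDF2L1 lies at chr22:21642261-21644298 on the plus strand (GRCh38, GENCODE release 29). Its transcript is the shortest (865 bases) and most GC-rich (65.5%) among the members. With offsets for GC content and length, an alternative chosen after seeing the data, it still passed the threshold. It passed in 21 of 22 alternative analyses, the exception being limma on log2(FPKM + 1) without a filter (adjusted p = 0.057).

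CALR holds newly made glycoproteins in the ER lumen and buffers calcium there. In shControl cells it was at 447 and 439 CPM without treatment, 404 and 506 CPM under HNE and 457 and 435 CPM under H2O2. In shHuR cells it was at 521 and 498 CPM without treatment, 477 and 480.4 CPM under HNE and 474 and 527 CPM under H2O2. The lines did not overlap untreated or with H2O2, while with HNE the shControl values lay on both sides of the shHuR values. The shControl libraries averaged 448 ± 33.7 CPM and the shHuR libraries 496 ± 23.2 CPM (SD, n = 6 for each). The log2 fold change of CALR was 0.15 (SE 0.0497, adjusted p = 0.0331), and 0.20 without HNE replicate 2 of shControl. It was 0.08 with offsets for GC content and length (adjusted p = 0.119), and CALR was not called in 11 of 22 alternative analyses. These were the offsets, the 3 limma fits and the fits without shControl untreated replicate 1 or 2, HNE replicate 1 or H2O2 replicate 2, or without shHuR untreated replicate 1 or 2 or H2O2 replicate 2. CANX, which does the same work from the ER membrane, ran from 1377 to 1473 CPM in shControl (median 1421) and from 1426 to 1538 CPM in shHuR (median 1487). The difference on the log2 scale was 0.06 (SE 0.0304, adjusted p = 0.144). It passed the threshold with scaling to library size alone (0.08, adjusted p = 0.022) and with the offsets (0.09, adjusted p = 0.021).

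HERPUD1 was at 26.0 and 23.4 CPM without treatment, 28.2 and 28.1 CPM under HNE and 26.0 and 26.3 CPM under H2O2 in shControl cells. In shHuR cells it was at 27.8 and 28.6 CPM without treatment, 29.99 and 28.7 CPM under HNE and 28.5 and 30.8 CPM under H2O2. Within each treatment both shHuR libraries were above both shControl libraries, and 5 of 6 shHuR libraries were above every shControl library. The shControl libraries averaged 26.3 ± 1.73 CPM and the shHuR libraries 29.1 ± 1.08 CPM (SD, n = 6 for each), a log2 fold change of 0.14 (SE 0.0514, adjusted p = 0.0416). Its adjusted p was near the threshold and exceeded it in 11 of 22 alternative analyses, up to 0.108, with the direction kept in all 22. Among those were the fits without a filter and without any 1 of the untreated and H2O2 libraries of either line or HNE replicate 1 of shHuR.

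PDIA4 was at 308 and 307 CPM without treatment, 312 and 376 CPM under HNE and 322 and 311 CPM under H2O2 in shControl cells. In shHuR cells it was at 362 and 342 CPM without treatment, 366 and 363 CPM under HNE and 339 and 351 CPM under H2O2. As for XBP1, all 6 shHuR libraries were above the shControl libraries other than HNE replicate 2, which was the highest of the 12. The shControl libraries averaged 323 ± 26.7 CPM and the shHuR libraries 354 ± 11.7 CPM (SD, n = 6 for each), which gave a log2 fold change of 0.13 (SE 0.0439, adjusted p = 0.0289), or 0.18 without that library. The call was lost in 6 of the 12 fits that leave out a library (adjusted p up to 0.068): shControl untreated replicate 1 or 2, HNE replicate 1 or H2O2 replicate 2, and shHuR untreated replicate 1 or H2O2 replicate 2.

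Among the sensors, ATF6 ran from 90.9 to 107 CPM in shControl (median 105) and from 91.5 to 106 CPM in shHuR (median 96.0), with a log2 fold change of -0.05 (SE 0.0491, adjusted p = 0.438), or -0.01 with the offsets for GC content and length. EIF2AK3 ran from 25.3 to 32.7 CPM (median 26.9) and from 27.04 to 30.8 CPM (median 29.3), a log2 fold change of 0.07 (SE 0.0645, adjusted p = 0.441), or 0.11 without HNE replicate 2 of shControl. ERN1 ran from 6.51 to 10.4 CPM (median 8.03) and from 7.67 to 9.91 CPM (median 8.18). Its log2 fold change of 0.04 (SE 0.104, adjusted p = 0.822) was below 0 when untreated shControl replicate 2 (-0.04) or untreated shHuR replicate 2 (-0.02) was left out. The ranges of the lines overlapped widely for all 3 sensors. EDEM1 ran from 96.8 to 112 CPM in shControl (median 100.1) and from 94.8 to 102 CPM in shHuR (median 96.3), a log2 fold change of -0.07 (SE 0.0394, adjusted p = 0.209). ATF6 and EDEM1 were the only members with a negative estimate over all treatments.

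**Figure D2:**
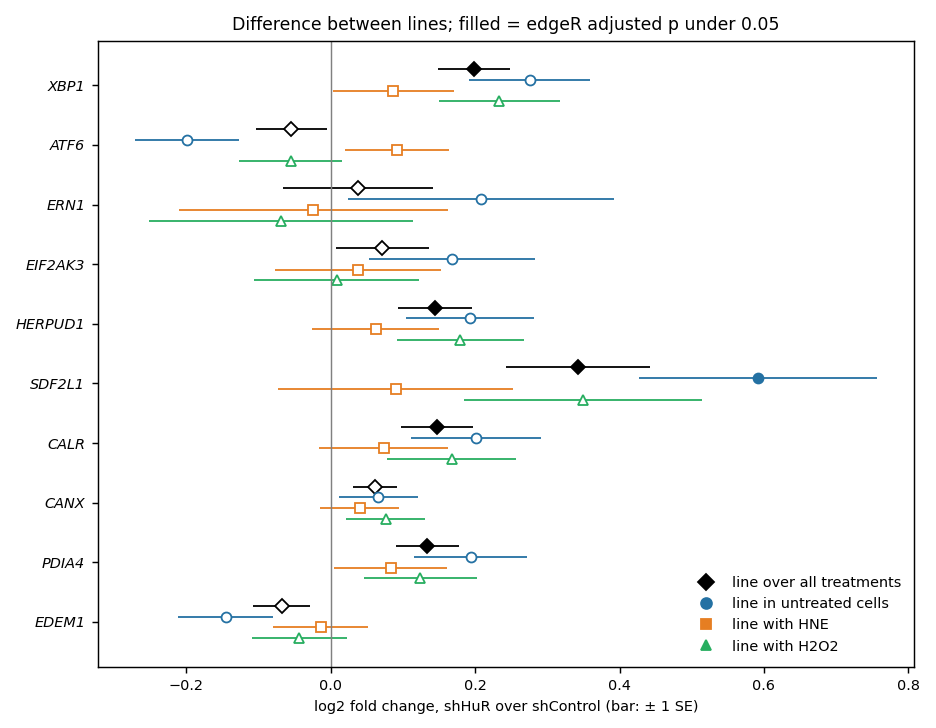
Log2 fold change of each member between the lines (horizontal axis, shHuR over shControl, with bars of ± 1 SE) over all treatments and within each treatment. Filled symbols have an edgeR adjusted p under 0.05: 5 members over all treatments and SDF2L1 in untreated cells.

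Within untreated cells 1 member passed the test, SDF2L1, where 7.98% of all genes did (3.5% higher and 4.48% lower in shHuR). Its log2 fold change was 0.59 (SE 0.165, adjusted p = 0.0430), and in the alternative analyses the estimate stayed between 0.47 and 0.64 and was called in 10 of 22. The call was lost without any 1 untreated library of either line or any 1 treated shHuR library. It was also lost in the 3 limma fits and with the replicate number as a block. XBP1 came next at 0.28 (adjusted p = 0.0606), and DESeq2 called it (adjusted p = 0.029). The other untreated estimates, none of which passed, were 0.21 for ERN1, 0.20 for CALR, 0.19 for HERPUD1, 0.19 for PDIA4, 0.17 for EIF2AK3, 0.07 for CANX, -0.15 for EDEM1 and -0.20 for ATF6. With the offsets for GC content and length CALR was at 0.09, ATF6 at -0.10 and CANX at 0.15, still not called. With either replicate of HNE-treated shControl left out, the untreated estimates of XBP1, CALR and PDIA4 were 0.28, 0.20 and 0.20. These genes crossed the threshold in both fits, where more of all genes were called as well. The HNE-treated shControl group enters this comparison only through the shared estimate of the spread. ATF6 was at 107 and 104 CPM in untreated shControl cells and at 92.6 and 91.5 CPM in untreated shHuR cells (unadjusted p = 0.0155, adjusted p = 0.109). EDEM1 was at 112 and 106 CPM against 102 and 95.1 CPM (adjusted p = 0.199). For 7 of the 10 members the unadjusted p was under 0.05 in untreated cells, as it was for 3724 of the 16005 genes tested. The estimate for ERN1 was -0.02 without untreated shControl replicate 2.

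With HNE in both lines, 0 of 10 members differed between the lines, by edgeR, by DESeq2 or at an unadjusted p under 0.05, where edgeR called 8.27% of all genes (3.24% higher and 5.04% lower). An unadjusted p under 0.05 was found for 3828 of the 16005 genes tested. The log2 fold changes were 0.09 for SDF2L1, 0.09 for XBP1, 0.08 for PDIA4, 0.07 for CALR and 0.06 for HERPUD1. These values rest on the pair of shControl libraries that disagreed. Without replicate 2 the difference in SDF2L1 was 0.47 (adjusted p = 0.030, called), and those in XBP1 (0.23), CALR (0.24) and PDIA4 (0.22) were not called. Without replicate 1 SDF2L1 (-0.21), XBP1 (-0.04), CALR (-0.07) and PDIA4 (-0.03) changed sign. In these fits the library left alone in its group is assumed to vary like the libraries of the other groups. With all libraries and the offsets for GC content and length SDF2L1 was at 0.23 and CALR at 0.04, not called. With H2O2, 0 of 10 members passed by edgeR or DESeq2, with 7.19% of all genes called by edgeR (2.52% higher and 4.67% lower) and XBP1 alone among the members at an unadjusted p under 0.05. That looser threshold was met by 3677 of the 16005 genes tested. The log2 fold changes were 0.35 for SDF2L1 (adjusted p = 0.225), 0.23 for XBP1 (adjusted p = 0.111), 0.18 for HERPUD1, 0.17 for CALR and 0.12 for PDIA4. Leaving out either replicate of HNE-treated shControl left the estimates of SDF2L1 and XBP1 with H2O2 at 0.35 and 0.24. Both genes crossed the threshold with replicate 1 left out, where more of all genes were called as well. The HNE-treated shControl group does not enter this comparison beyond the shared estimate of the spread.

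The comparison with untreated cells asks whether HNE or H2O2 moved the members. Over both lines, 0 of 10 members changed with HNE, by edgeR, by DESeq2 or at an unadjusted p under 0.05, in a comparison where edgeR called 0.247% of all genes. The estimates ran from -0.10 for EDEM1 to 0.14, with 0.12 for XBP1 and 0.12 for HERPUD1 (SE 0.0682 for both), and XBP1 was at 0.04 without HNE replicate 2 of shControl. With H2O2 0 of 10 changed, and the count over all genes was also 0 (0% called). XBP1 had the lowest p of the members with H2O2 (log2 fold change 0.12, unadjusted p = 0.0154, adjusted p = 0.900), and DESeq2 called 0 members. Both treatments are compared with the same untreated libraries, so their estimates are not independent. For XBP1 the untreated shControl values, 90.7 and 84.9 CPM, were below every other library. Untreated shControl was the lowest of the 6 group means for 8 of the 10 members, and the exceptions were ATF6 and EDEM1.

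Within shControl cells 0 of 10 members passed with HNE, by edgeR or DESeq2 (0.0187% of all genes were called by edgeR). An unadjusted p under 0.05 was found for 1872 of the 16005 genes tested and for 4 members. The log2 fold changes of these 4 were 0.39 for SDF2L1 (adjusted p = 0.391), 0.21 for XBP1 (adjusted p = 0.362), -0.17 for EDEM1 (adjusted p = 0.353) and -0.18 for ATF6 (adjusted p = 0.375). Without HNE replicate 2, SDF2L1 was at 0.01 and XBP1 at 0.07. Without HNE replicate 1 they were at 0.69 and 0.34, and both crossed the threshold. That fit has 1 library in the HNE group and called many more of all genes. With the offsets for GC content and length SDF2L1 was at 0.23. Within shHuR cells SDF2L1 was at -0.11 (-0.02 with the offsets), XBP1 at 0.02, EDEM1 at -0.04 and ATF6 at 0.11, and 0 members passed by edgeR or DESeq2 (0.075% of all genes called, 0.0375% in each direction) or had an unadjusted p under 0.05. ATF6 was at 96.0 and 90.9 CPM with HNE in shControl, below both untreated libraries, and at 93.9 and 105 CPM with HNE in shHuR, above both. The difference in the HNE response between the lines was tested as an interaction, which 0 members passed (0% of all genes called). It was 0.29 for ATF6 (unadjusted p = 0.0130, adjusted p = 0.712) and -0.50 for SDF2L1 (unadjusted p = 0.0479, adjusted p = 0.732). For SDF2L1 it was -0.12 without HNE replicate 2 of shControl and -0.80 (adjusted p = 0.048) without replicate 1, and -0.24 with the offsets for GC content and length. With H2O2, 0 members passed in either line or in the interaction, by edgeR, by DESeq2 or at an unadjusted p under 0.05, and edgeR called 0% of all genes in each.

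**Figure D3:**
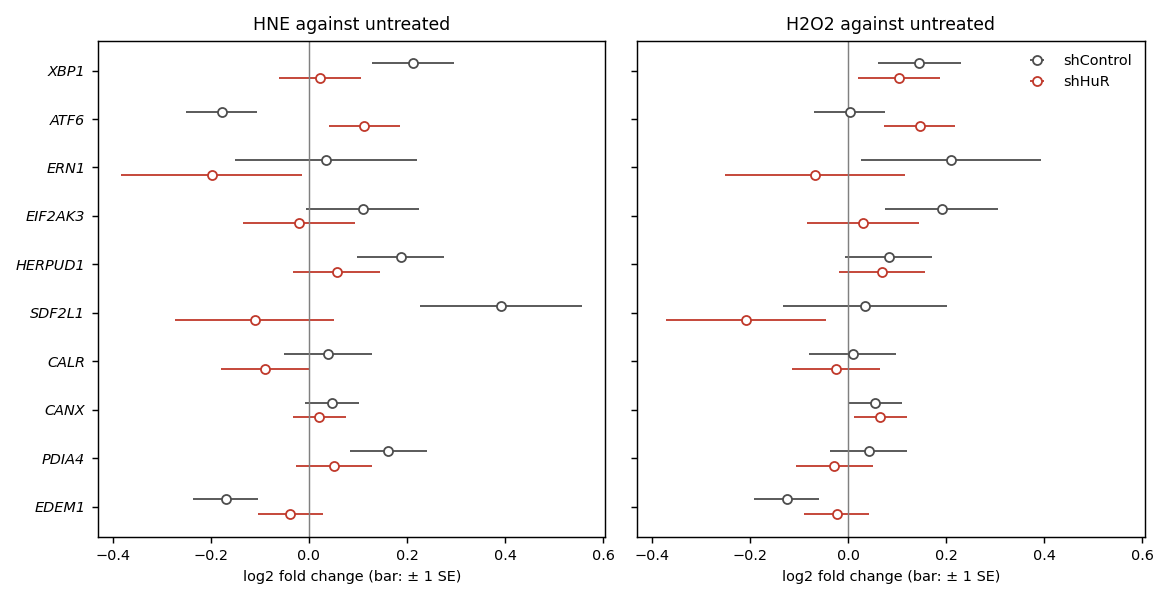
Log2 fold change of each member with HNE (left) and H2O2 (right) against untreated cells of the same line (horizontal axes, bars ± 1 SE; grey shControl, red shHuR). No estimate has an adjusted p under 0.05, and SDF2L1 with HNE lies at 0.39 in shControl and -0.11 in shHuR.

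In the library labelled shControl HNE replicate 2, XBP1, SDF2L1, CALR and PDIA4 were all above replicate 1, and ATF6 was below it. Small RNA genes took their highest share of counts in this library (1.30%) and the lowest TMM scaling factor (0.965), and its pair had the largest chi-square per degree of freedom of the 6 replicate pairs (22.6, against 3.02 for the lowest). Whether these features have a part in the members' values was not tested. All 5 members called over all treatments were called without this library as well.

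SDF2L1 was the only member whose 6 group means spanned at least 0.5 on the log2 CPM scale (0.59, from untreated shControl to untreated shHuR). The genes with the most similar profile over the 6 group means were C1orf122, POLR2L and COA3. The root mean square difference between their centred log2 means and those of SDF2L1 was 0.0289, 0.0503 and 0.0512. Their transcripts are GC-rich like that of SDF2L1, at 64.2% (C1orf122), 60.1% (POLR2L) and 59.0% (COA3), against a median of 48.7% over annotated genes.

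The rest of the pathway was followed in 6 lists of 113 genes that hold none of the members, all of them tested. HSPA5 (BiP), the ER chaperone that binds and restrains the sensors, lay at 187 to 287 CPM in shControl (median 225) and at 323 to 347 CPM in shHuR (median 340), with no overlap. Its log2 fold change over all treatments was 0.56 (SE 0.0699, adjusted p = 1.63e-05), larger than that of any member, and 0.65 without HNE replicate 2 of shControl, its highest shControl library. Within treatments it was 0.62 untreated, 0.52 with HNE and 0.53 with H2O2, all called, and the value with HNE was 0.86 without that library. HSP90B1 (GRP94), the ER form of HSP90, was at 0.09 (adjusted p = 0.0814), and at 0.11 (adjusted p = 0.0226) without that library. DNAJB9, a BiP co-chaperone that is a target of spliced XBP1, fell by 0.26 on the log2 scale (adjusted p = 0.00907), so genes that act with BiP did not all move in the same direction.

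Among the 30 ER chaperones and folding enzymes 13 were higher in shHuR, 6 lower and 11 not called, with a median log2 fold change of 0.10. TXNDC12, a thioredoxin-like protein of the ER, was at 0.71, though its deposited counts were not whole numbers, so reads may have been divided with an overlapping gene. SERPINH1 (HSP47), the collagen chaperone, was at 0.40. For the 24 genes of ER-associated degradation, the pathway of HERPUD1 and EDEM1, 3 were higher, 4 lower and 17 not called (median 0.03). UFD1L, a cofactor of the VCP segregase, was at 0.35 and the mannosidase MAN1B1 at -0.27. The 8 other genes of the calnexin cycle gave 2 higher, 1 lower and 5 not called (median -0.03): the glucosidase MOGS was at 0.13, the folding sensor UGGT1 at 0.12 and the lectin MLEC at -0.12.

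Of 16 genes of the translocon, the channel through which CALR, PDIA4 and other ER proteins enter, 5 were higher, 2 lower and 9 not called (median 0.04). SEC61A1 (0.31) and SEC61B (0.34), subunits of the channel, were higher, and SEC61A2, a second form of the alpha subunit, was lower (-0.42). Of 17 further genes of unfolded protein response signalling 4 were higher, 3 lower and 10 not called (median 0.09). NFYA, a subunit of the factor NF-Y that binds the CCAAT end of ERSE, was at 0.38 (its deposited counts were not whole either), WFS1 at 0.37 and CREBZF at -0.31. Of 18 genes of the arm downstream of EIF2AK3, 2 were higher, 4 lower and 12 not called (median -0.03). ATF4 was at -0.08 (adjusted p = 0.125) and DDIT3 (CHOP), the factor linked to cell death under lasting ER stress, at -0.01 (adjusted p = 0.948) and 6.21 to 8.73 CPM. VLDLR (-0.55) and ATF3 (-0.42) were lower and PSAT1 (0.18) was higher.

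In all, 49 of the 113 list genes were called between the lines, 29 higher and 20 lower, where 29.9% of all genes were called. Without HNE replicate 2 of shControl, where 31.9% of all genes were called, the chaperone list gave 15 higher and 7 lower and the degradation list 5 and 5. The other 4 lists then differed by at most 1 call. The 6 list medians kept their signs with the other scalings. With HNE over both lines edgeR called 0 of the 113 genes, DESeq2 called 3, and 19 had an unadjusted p under 0.05. Over all 15780 genes tested these counts were 39, 182 and 1942. With H2O2 over both lines edgeR and DESeq2 called 0, and 4 had an unadjusted p under 0.05. Over all 15801 genes tested edgeR called 0 and DESeq2 3, and 861 had an unadjusted p under 0.05.

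**Figure D4:**
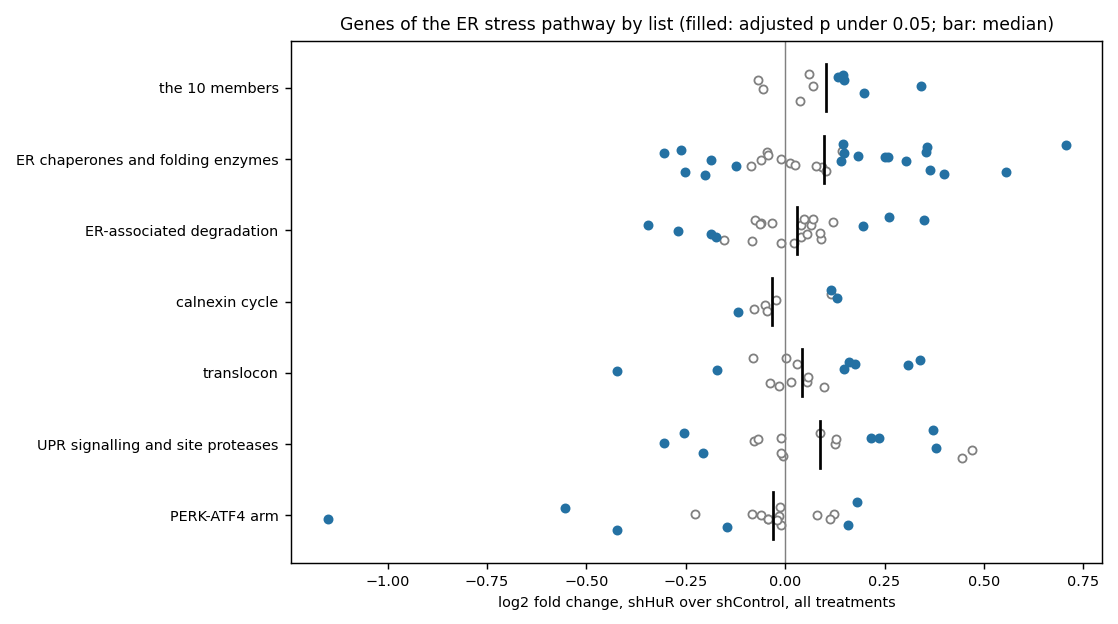
Log2 fold change between the lines over all treatments (horizontal axis) for the 10 members and the genes of the 6 lists (rows; 1 point per gene, vertical bar the median, filled with an edgeR adjusted p under 0.05). Called members lie to the right of 0, while each of the 6 lists has called genes on both sides.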

How the data were processed

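Total RNA of 12 HEK293T cultures was depleted of ribosomal RNA and sequenced from directional libraries as single-end 75 bp reads, per the labels' protocols. The authors deposited estimated counts and FPKM values per gene symbol. The submitters' processing notes name cutadapt 1.8, Bowtie2 2.2, TopHat2 2.1, Cufflinks 2.2, Cuffnorm, Cuffdiff and GRCh37/hg19, with no role or order. Whether counting used strand is not given in the sources used here. Of the deposited counts 2.06% were not whole (tolerance 1e-06) and were rounded. Every member's counts were whole.

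The members, lists, comparisons and tests were chosen with earlier results of these data known. Genes passing filterByExpr (minimum count 10) were scaled by TMM (factors 0.965 to 1.03) and tested with edgeR 4.0.16 (R 4.3.3; quasi-likelihood F-test, Benjamini-Hochberg adjustment over all genes, threshold 0.05). Line within treatment, treatment within line and interactions used 6 group means over 12 libraries. The line over all treatments had treatment as a covariate, and each treatment over both lines used 8 libraries with line as a covariate. SE is the log2 fold change divided by the square root of F. CPM uses TMM-scaled library sizes. Named outside the members were HSPA5, HSP90B1, ATF4, DDIT3, DNAJB9 and ELAVL1. From each list, up to 3 called genes of at least 5 CPM with the largest change between the lines were named. For 1 list gene the values are not reported here. For a member whose group means span at least 0.5, the 3 genes of nearest profile were named.

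The 22 alternatives were DESeq2 1.42.0, its size factors, library size alone, no filter, a replicate block, a filter on mean CPM (1 or more), limma 3.58.1 on log2(FPKM + 1) with and without a filter (mean FPKM of at least 1) and on log2(FPKM + 0.1), each of 12 libraries left out and, chosen after seeing the data, offsets for GC content and length. The scripts were tested on simulated data. Positions are from GENCODE release 29 and RefSeq on GRCh38, not the build of the authors.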

Additional observations from a re-analysis of the deposited data

Results flagged for a closer look

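In 20 sets of 6 libraries (each of the 10 members in each line), the library farthest from the others was compared with the range of its set. Chance flags about 1 in 20 such sets. SDF2L1 was flagged in shControl HNE replicate 2, at 41.5 CPM, where the next library of the line was at 28.7 CPM and the lowest at 23.5 CPM (gap over range 0.71). PDIA4 was flagged in the same library, at 376 CPM, against 322 CPM for the next and 307 CPM for the lowest (gap over range 0.780). The 6 libraries of a line include 3 treatments, and the other HNE library of the line was not raised for either gene (25.7 CPM for SDF2L1 and 312 CPM for PDIA4).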

How the results depend on the processing

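Over all treatments 5 members were called, 3 with limma on log2(FPKM + 1) without a filter, 6 with library size alone (CANX added) and 2 to 5 with a library left out. In untreated cells 1 was called, 2 with DESeq2, with library size alone, without a filter or with the GC and length offsets, 0 with each of the 3 limma fits and 0 to 4 with a library left out. The matching counts over all genes were 4787 of 16005 over all treatments, 4085 of 20909 in that limma fit and 4765 of 16005 with library size alone. In untreated cells they were 1277 of 16005, 1552 with DESeq2, 1155 with library size alone, 1949 of 20857 without a filter and 1277 of 14551 with the offsets. The 3 limma fits called 1047 and 1058 of 12856 and, without a filter, 726 of 20909. Without a filter, 1 member was called with H2O2 between the lines and 1 with HNE in shControl, both SDF2L1 and both 0 otherwise with all 12 libraries. Over all genes, 1802 and 329 of 20857 were then called in these 2 comparisons, against 1151 and 3 of 16005 with the filter. Leaving out a library also changed which members were called between the lines with HNE or H2O2, for HNE in shControl and for the HNE interaction. The number called over all genes changed in those fits as well.

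Of 968 single-gene values (44 results under 22 alternatives) 895 kept direction and side of the threshold, 41 lost the call, 22 gained it and 10 reversed. Of the reversals, 9 came with a library left out, which gave -0.037 to 0.11 for ERN1 over all treatments and -0.019 to 0.48 untreated. Between the lines with HNE it gave -0.036 to 0.23 for XBP1, -0.209 to 0.47 for SDF2L1, -0.070 to 0.24 for CALR and -0.034 to 0.22 for PDIA4, and with HNE in shHuR -0.0033 to 0.048 for XBP1 and -0.090 to 0.012 for EDEM1. XBP1 there was -0.037 with the offsets. The cause was not tested. Over all genes, the count called in untreated cells was 1277 and ran from 726 to 1949 with all 12 libraries and from 242 to 2055 with a library left out. For HNE over both lines it was 39, with 1 to 334 and 3 to 168.

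With the replicate number as a block, 4 members were called over all treatments (HERPUD1 at an adjusted p of 0.050 was not) and 0 in untreated cells (SDF2L1, adjusted p = 0.059). Of the 16005 genes tested with the block, 4652 were called over all treatments and 1058 in untreated cells. The labels give no shared batch or day for a replicate number. Over 15 pairs of groups the deviations of same-numbered libraries correlated between -0.107 and 0.129, and 2 pairs exceeded 0.1. Such correlations cannot tell whether same-numbered cultures were handled together. Differences of 0.13 to 0.15 on the log2 scale, as found for PDIA4, HERPUD1 and CALR, were near the limit of 12 libraries. The SE of the members ran from 0.030 to 0.104 over all treatments. ERN1 is the member with the lowest level and the largest SE.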

Other observations

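Partners of BiP that were named after their values were seen moved in both directions between the lines over all treatments. HYOU1, the nucleotide exchange factor of BiP, rose from 170 ± 7.61 to 219 ± 6.72 CPM (SD, n = 6 in each line; log2 fold change 0.37), DNAJB11 rose from 52.8 to 63.4 CPM (0.26) and MANF, a small ER protein that binds BiP, from 61.2 to 78.4 CPM (0.36). The ER co-chaperones DNAJC10 (-0.19) and DNAJC1 (-0.25) fell. P4HB, the main protein disulfide isomerase, rose from 241 to 298 CPM (0.30), and the ER oxidase genes ERO1L (-0.12) and ERO1LB (-0.20) fell. In ER-associated degradation DERL2, a subunit of the retrotranslocation channel complex, rose (0.26) and SEL1L, the adaptor of the ligase complex with which HERPUD1 works, fell (-0.19). All have an edgeR adjusted p under 0.05, a threshold that 29.9% of all genes passed.

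Of 17 tested genes whose promoter held the exact ERSE 4 were higher in shHuR (23.5%) and 1 lower, and of 15 with ERSE-II 5 were higher (33.3%) and 1 lower. Of 136 tested genes with UPRE, which hold none of the members, 34 were higher (25%) and 23 lower (16.9%), with a median log2 fold change of 0.002 against 0.0048 over all genes with a promoter sequence. Among the 11138 tested genes with a promoter sequence 15.6% were higher and 15.9% lower. The genes with ERSE or ERSE-II include XBP1, CALR, HERPUD1 and SDF2L1, so these counts are a description and add no independent values to those of the members.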
